A study of Homo sapiens with 2 samples.

Results

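Lysosomal genes were compared between K562 cells resistant to nilotinib (nilotinibR) and parental K562 cells. The set was defined by gene name, with earlier results of these data known. It holds a list of 26 genes for soluble lysosomal enzymes, activator proteins, membrane proteins and the transcription factors TFEB and TFE3. Added to these is every gene whose symbol marks a subunit (ATP6V0 or ATP6V1) or an accessory protein (ATP6AP) of the vacuolar proton pump. Cathepsins were not in the set. A probe was named for 25 of the listed genes and for 22 pump genes, 47 genes of 20046 with a named probe on the array. CD63, ATP6V0C, ATP6V0A4 and ATP6V1E2 were not analysed here.

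K562 is an established human chronic myeloid leukemia line whose growth depends on the BCR/ABL fusion kinase, and nilotinib is an inhibitor of that kinase. The nilotinibR cells came out of 3 months of stepwise selection and routinely grew in 1 µM nilotinib, and the parental cells were cultured alongside with no drug (0 µM). Each condition was measured on 1 HumanHT-12v4 BeadChip array from total RNA, so no difference has a replicate check and no p-value is given. Resistance, the presence of the drug and a chance difference between 2 cultures cannot be told apart, and neither can fewer cells of a kind and less RNA per cell.

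The lysosome breaks down macromolecules with hydrolases that work at acid pH. The vacuolar proton pump (V-ATPase) keeps its lumen acid: the V1 sector on the cytosolic side hydrolyzes ATP, and the V0 sector in the membrane carries protons inward. Sphingolipids need small activator proteins besides their enzymes, cholesterol leaves the lysosome through NPC2 and NPC1, and heavily glycosylated membrane proteins such as LAMP1 and LAMP2 line its inner surface. TFEB and TFE3 are transcription factors known to activate many lysosomal genes, pump genes among them, through promoter sites with the core CACGTG, and their activity is known to be set largely by phosphorylation and movement into the nucleus.

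Because many lysosomal genes are known to share that core, the promoters of the members were read from RefSeq (GRCh38.p14), from 250 bases before to 50 bases after the start of transcription. Of the 47 members, 34 had an entry, and 9 of these held CACGTG, a motif that reads the same on both strands. Among all entries, 8.77% of 27305 genes and 7.26% of 35116 promoters of this length held it. The longer TCACGTGA, which contains CACGTG, was present in 6 members and in 1.18% of genes. The stretches of all 9 members are shown 5′ to 3′ on the strand of the gene, with CACGTG in capitals.
LAMP1, chr13:113297044-113297109, plus strand: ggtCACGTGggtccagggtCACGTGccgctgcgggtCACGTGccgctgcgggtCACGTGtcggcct
MCOLN1, chr19:7522576-7522623, plus strand: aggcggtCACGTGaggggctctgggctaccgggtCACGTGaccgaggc
GAA, chr17:80101497-80101563, plus strand: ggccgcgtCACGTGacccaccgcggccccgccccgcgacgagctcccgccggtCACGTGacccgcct
GALNS, chr16:88857106-88857129, minus strand: caccgcgtCACGTGacccgccgct
NEU1, chr6:31862934-31862955, minus strand: tgcgtgatCACGTGggaggaga
ATP6V0B, chr1:43974896-43974934, plus strand: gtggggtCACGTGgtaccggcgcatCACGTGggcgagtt
ATP6V0D1, chr16:67481203-67481224, minus strand: cttatggtCACGTGaggcgctt
ATP6V1G1, chr9:114587703-114587724, plus strand: tgtgcggtCACGTGacaacggg
ATP6V0E2, chr7:149872888-149872909, plus strand: ttctgcatCACGTGgggactgc

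LAMP1 held 6 copies in its window, of which 4 lie in the stretch shown. MCOLN1, GAA, GALNS and ATP6V0B held 2 each, and the GALNS stretch shows 1 of its copies. The genes with a CACGTG core came from different classes, 3 from the hydrolases and activators, 2 from the membrane proteins and 4 from the pump.

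A related core that members of the same transcription factor family are known to bind, TCATGTG or its reverse complement CACATGA, was found in 3 members, TPP1, PPT1 and SCARB2, none of which held CACGTG, and in 3.59% of all genes. These stretches are shown with that core in capitals, beside the 60 bases before the start of GLB1, which hold neither core. TPP1 and GLB1 are the members with the largest differences described below.
TPP1, chr11:6619423-6619482, minus strand: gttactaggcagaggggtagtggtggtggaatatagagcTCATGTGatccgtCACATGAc
PPT1, chr1:40097243-40097272, minus strand: agtctcgcgcccgcggTCATGTGacacagc
SCARB2, chr4:76213923-76213945, minus strand: ccgcagggCACATGActgcggcc
GLB1, chr3:33096823-33096882, minus strand: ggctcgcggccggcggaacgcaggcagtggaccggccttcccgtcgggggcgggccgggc

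TPP1 held the core once in each orientation, close to its start. A match describes the letters of the window only. No binding was measured here.

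The values below are the authors' deposited intensities, the brightness of a probe on a linear scale from which no background had been taken off. A probe counted as measured if it stood out from the dim probes of an array, that is if it was above 119 in nilotinibR or above 120 in parental cells. Differences are nilotinibR minus parental on the log2 scale after background correction, addition of an offset of 50 and quantile normalization, with a gene's measured (kept) probes averaged. The ratio of 2 deposited intensities is therefore smaller than the fold for dim genes, since the background is in both. Intensities ran between 88.2 and 22044 on the nilotinibR array and between 92.8 and 21126 on the parental array. Among 2589 genes with 2 kept probes, the differences from the 2 probes had an SD of 0.27 (1.21-fold), which covers probe error and differences between transcripts, but no spread between cultures.

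Of the 47 members, 42 were measured, of 13164 genes in all. Within the set, the differences of the hydrolases and activators lay mostly above 0, with several enzymes well above it. Those of the proton pump lay around 0. At 1.5-fold, 7 members were higher, against 7.51% of all genes measured, and 1 was lower, against 8.22%. The 7 were the enzyme genes GLB1, TPP1, MANBA, GUSB and FUCA1, the cholesterol carrier gene NPC2, and ATP6AP1L, a relative of a pump accessory gene, and the 1 was the enzyme gene GLA. At 2-fold, GLB1, TPP1, MANBA and ATP6AP1L were higher, against 2.44% of all genes, and no member was lower, against 2.78%. The median log2 difference was 0.37 over the 16 hydrolases and activators measured and -0.00050 over the 19 pump genes, while all genes had a median of -0.0020 and an interquartile range of -0.23 to 0.23.

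**Figure D1:**
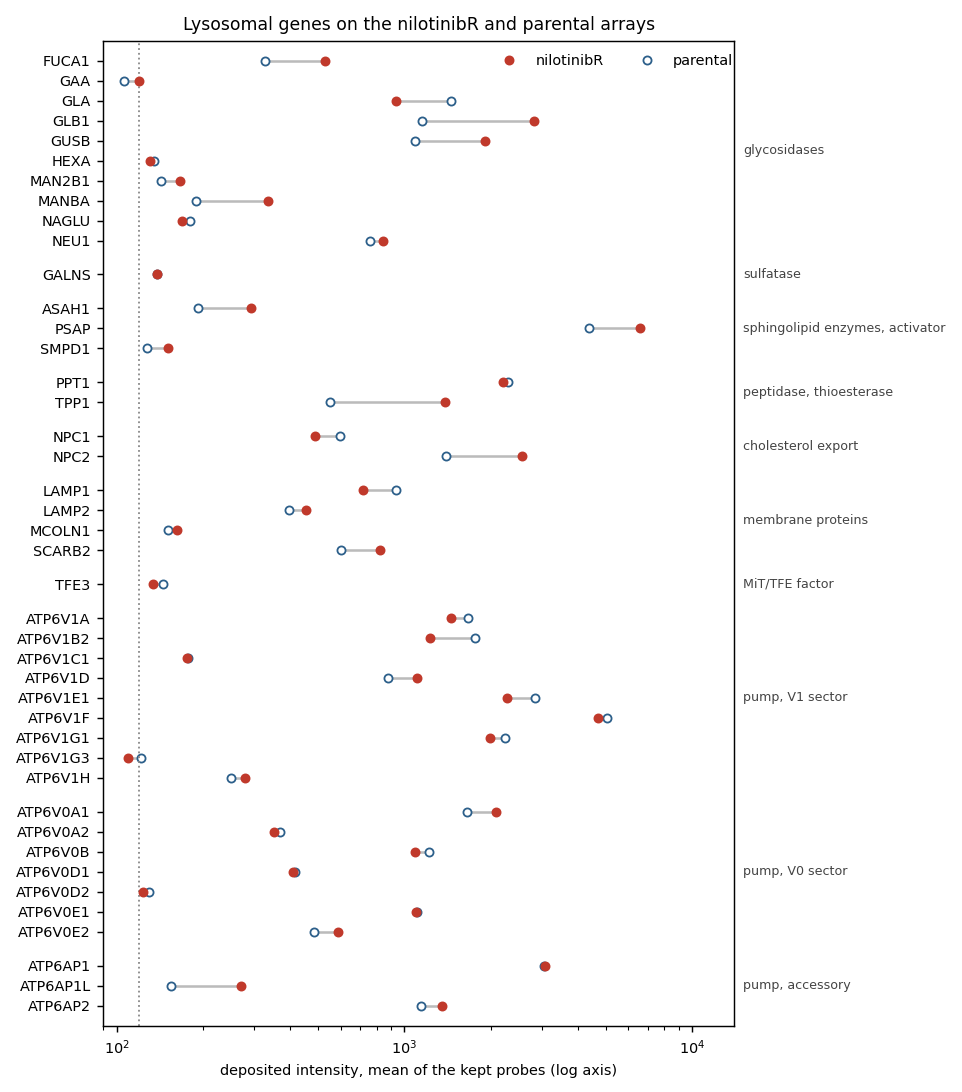
Deposited intensity (log axis) of each of the 42 measured members, as the mean of its kept probes, on the nilotinibR array (filled) and the parental array (open), grouped by role; the dotted line marks 120, the parental threshold above which a probe counted as measured. The filled point lies well to the right of the open one at GLB1, TPP1, GUSB, MANBA, FUCA1, NPC2 and ATP6AP1L, and to its left at GLA. Levels of different genes rest on different probes and have no order.

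Among the 10 glycosidases, the enzymes that take sugars off glycoproteins, glycolipids and polysaccharides, 4 were at least 1.5-fold higher and 1 was lower. GLB1, the lysosomal beta-galactosidase, had intensities of 2319 and 3327 at its 2 kept probes in nilotinibR cells, against 868 and 1443 in parental cells. Both probes were higher, with log2 differences of 1.54 and 1.29, and the gene was 2.67-fold higher, a difference exceeded by 114 genes of the array. The remaining GLB1 probe was not well above background on either array, at 105.6 in nilotinibR and 105.7 in parental cells. If that probe is averaged in, the log2 difference of GLB1 is 0.97.

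GUSB, the beta-glucuronidase that acts on glycosaminoglycans, had an intensity of 1906 in nilotinibR cells and 1092 in parental cells, and was 1.85-fold higher. MANBA, the beta-mannosidase of glycoprotein breakdown, had 335 in nilotinibR cells and 188 in parental cells, a log2 difference of 1.03. FUCA1, the alpha-fucosidase, had 528 in nilotinibR cells and 328 in parental cells, 1.75-fold higher. Each of the 3 rests on 1 kept probe and so has no second measurement on the array. GLA, the alpha-galactosidase that is deficient in Fabry disease, went the other way, with 933 in nilotinibR cells against 1455 in parental cells. Its fold was 1.52, and it was the 1 member past the threshold downward. Set side by side, the 2 galactosidases GLB1 and GLA had log2 differences of 1.42 and -0.61.

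The other 5 glycosidases did not reach 1.5-fold. NEU1, a sialidase, had 840 in nilotinibR cells and 759 in parental cells, with a log2 difference of 0.21. MAN2B1, the alpha-mannosidase, had 166 in nilotinibR cells and 142 in parental cells (0.32). NAGLU and HEXA, which remove N-acetylglucosamine and N-acetylhexosamine, were dim and had log2 differences of -0.15 and -0.06. GAA, the acid alpha-glucosidase of glycogen breakdown, was above the dim probes only in nilotinibR cells, at 119.7 against 105.7 in parental cells, and was at least 1.01-fold higher. The sulfatase gene GALNS had 138 on both arrays.

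The 3 measured genes of sphingolipid breakdown all had positive differences, and none reached 1.5-fold. PSAP, which encodes the precursor of the saposin activators, lay just under the threshold at 1.498-fold (log2 difference 0.583, threshold 0.585). Its 2 probes had 6529 and 6654 in nilotinibR cells, against 4202 and 4531 in parental cells. SMPD1, the acid sphingomyelinase, was dim and had log2 differences of 0.42 and 0.34 at its 2 probes. ASAH1, the acid ceramidase, was measured by 2 probes that disagreed: 1 had 459 in nilotinibR cells and 248 in parental cells (1.06), and the other, near the dim probes, had 126 in nilotinibR cells and 136 in parental cells (-0.16).

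TPP1, the tripeptidyl peptidase whose loss causes a neuronal ceroid lipofuscinosis, had the largest difference among the members, at 1389 in nilotinibR cells against 553 in parental cells. The gene was 2.76-fold higher, and 106 genes of the array had a larger difference. PPT1, the palmitoyl-protein thioesterase that is lost in another form of the same disease, had 2203 in nilotinibR cells and 2293 in parental cells, a log2 difference of 0.02. Both carried the TCATGTG core close to the start. LIPA, the acid lipase, was not well above background on either array, at 108.0 in nilotinibR and 105.2 in parental cells. Of the 16 hydrolases and activators measured, 13 had a difference above 0 (11 with 75th percentile scaling), against 6544 of the 13164 genes. For 5 (31.25%) the difference was smaller than the SD of 0.27 between probes of a gene, against 57.8% of all genes.

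The proteins that move cholesterol out of the lysosome differed from each other. NPC2, the soluble carrier in the lumen, had 2566 in nilotinibR cells and 1390 in parental cells, 1.99-fold higher. NPC1, its partner in the membrane, had 489 in nilotinibR cells and 599 in parental cells, a log2 difference of -0.27. The log2 difference of NPC2 exceeded that of NPC1 by 1.26, and each gene rests on 1 probe.

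None of the 4 membrane proteins reached 1.5-fold in either direction. SCARB2, the receptor that carries glucocerebrosidase to the lysosome, came closest, with 825 in nilotinibR cells and 604 in parental cells (1.45-fold higher). LAMP2 was measured by 6 probes, which all had small positive differences, between 0.06 and 0.39. LAMP1 had 719 in nilotinibR cells and 933 in parental cells, a log2 difference of -0.35, so the paired proteins LAMP1 and LAMP2 lay on opposite sides of 0. MCOLN1, the calcium channel of the lysosomal membrane, had 162 in nilotinibR cells and 151 in parental cells.

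TFE3 was dim, with 133 in nilotinibR cells and 144 in parental cells and a log2 difference of -0.17, and TFEB was not well above background on either array, at 111 in nilotinibR and 115 in parental cells. Levels of mRNA do not show how much of either factor was in the nucleus.

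**Figure D2:**
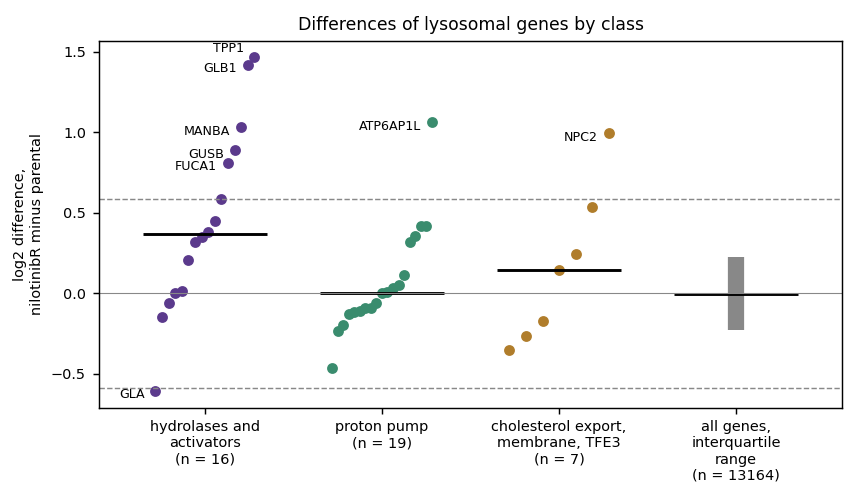
Log2 difference (nilotinibR minus parental) of each measured member by class, with the class median as a black bar and, at the right, the median and interquartile range of all 13164 genes; the dashed lines mark 1.5-fold. In the hydrolase column 5 genes lie above the upper line and GLA lies just under the lower line, while 18 of the 19 pump genes lie between the lines. Of all 13164 genes, 11093 lie between them.

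The pump genes stayed near the middle of the array. Of 22 with a named probe, 19 were measured, and 13 of these (68.4%) differed by less than 0.27, against 57.8% of all genes. In the V1 sector, which holds the catalytic ring, the stalks and their regulators, 9 genes were measured with a median of -0.11. ATP6V1B2, the ATP-binding B subunit, had 1228 in nilotinibR cells and 1757 in parental cells, a log2 difference of -0.46. ATP6V1A, the catalytic A subunit, had 1447 in nilotinibR cells and 1661 in parental cells (-0.13). ATP6V1D, of the central stalk, ran the other way with 1107 in nilotinibR cells and 876 in parental cells (0.41).

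ATP6V1E1, of the peripheral stalk, was the third largest in size of the sector, with -0.21 and -0.25 at its 2 probes. ATP6V1H, a regulatory subunit, was measured by 2 probes that differed in sign: 1 had 444 in nilotinibR cells and 359 in parental cells (0.38), and the other had 117 in nilotinibR cells, not above the dim probes there, and 139 in parental cells (-0.38). ATP6V1G3, an isoform known from the kidney, was above the dim probes only in parental cells, at 109.8 in nilotinibR against 121.1 in parental cells, and was at least 1.01-fold lower. ATP6V1F, ATP6V1G1 and ATP6V1C1 had log2 differences of -0.09, -0.11 and 0.05. ATP6V1B1, ATP6V1C2 and ATP6V1G2, isoforms known from other tissues, were not well above background on either array.

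In the V0 sector 7 genes were measured, with a median of 0.01 and values between -0.12 and 0.42. ATP6V0A1, an isoform of the a subunit that forms the proton path, had 2079 in nilotinibR cells and 1650 in parental cells (0.42), while its isoform ATP6V0A2 had 352 in nilotinibR cells and 371 in parental cells (-0.06). ATP6V0E2 had 589 in nilotinibR cells and 485 in parental cells (0.36), and the other e isoform, ATP6V0E1, had log2 differences of -0.08 and 0.14 at its 2 probes. ATP6V0B, of the proton-carrying ring, had -0.05 and -0.19, and ATP6V0D1 and ATP6V0D2, the subunits between ring and stalk, had 0.01 and -0.09. No V0 gene reached 1.5-fold.

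The accessory proteins ATP6AP1 and ATP6AP2, which assist assembly of the pump, had log2 differences of 0.11 and 0.32. ATP6AP1 had 3088 in nilotinibR cells and 3060 in parental cells, and ATP6AP2 had 1352 in nilotinibR cells and 1140 in parental cells. ATP6AP1L, whose name enters it by rule but which RefSeq annotates as a transcribed pseudogene, had 272 in nilotinibR cells and 154 in parental cells and was 2.09-fold higher. Without it the other 18 pump genes had a median of -0.03, none reached 1.5-fold in either direction, and the highest was ATP6V0A1. The median of the hydrolases and activators exceeded that of the pump by 0.37 with ATP6AP1L and by 0.40 without it. Genes of a class are not replicates, so these 2 medians are a description of the 2 arrays.

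**Figure D3:**
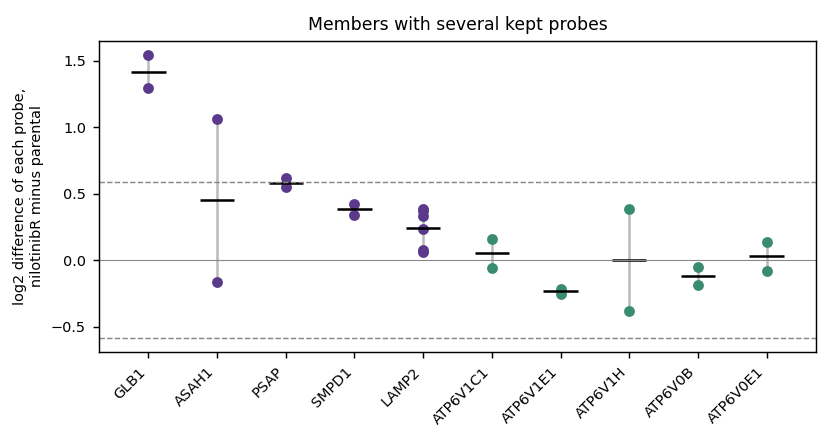
Log2 difference (nilotinibR minus parental) of each kept probe for the 10 members with more than 1, with the gene's mean as a black bar; the dashed lines mark 1.5-fold. The GLB1 probes lie together far above the upper line, the PSAP probes lie on either side of it at 0.62 and 0.55, and the ASAH1 and ATP6V1H probes lie on opposite sides of 0.

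Differences were also set beside the promoter cores. The 9 members with CACGTG in the window were all measured, and none of them reached 1.5-fold. Of all genes measured, 7.51% were higher and 8.22% were lower at that fold. The median difference of the 9 members was 0.01, and they ran between -0.35 for LAMP1, which has 6 copies, and 0.36 for ATP6V0E2. The 20 measured members with an entry and no CACGTG had a median of 0.32 and ran between -0.61 and 1.46. Pump genes were in both groups: of 15 with an entry, 4 held CACGTG. Those measured without it were ATP6V1D, ATP6V1E1, ATP6V1F, ATP6V1G3, ATP6V0A1, ATP6V0A2, ATP6AP1 and ATP6AP2. The comparison was not made within a class. Dim genes, whose differences the offset makes smaller, were on both sides. Among them were GAA, GALNS and MCOLN1 with CACGTG, and MAN2B1, SMPD1 and TFE3 without it. Whether the core had a part in the differences was not tested. Of the 7 genes that were higher, 5 had an entry (GLB1, GUSB, FUCA1, TPP1 and NPC2) and none of these held CACGTG. Among all genes with an entry, 8.77% held it. MANBA and ATP6AP1L had no entry. The 3 members with TCATGTG or CACATGA had differences of 1.46 (TPP1), 0.53 (SCARB2) and 0.02 (PPT1).

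Further lysosomal genes outside the set were read from 4 lists. Of 13 other hydrolases, 4 were at least 1.5-fold higher and 1 was lower, with a median of 0.09. Their differences lay above 0 for 7 genes and below 0 for 6, while 49.7% of all genes lay above 0. MAN2B2, a second alpha-mannosidase, had 830 in nilotinibR cells and 387 in parental cells (2.37-fold higher), and DNASE2, the acid deoxyribonuclease, had 1088 in nilotinibR cells and 549 in parental cells (2.15-fold higher). ARSA, the sulfatase of sulfatide breakdown, had 198 in nilotinibR cells and 138 in parental cells (1.65-fold higher). IDUA, an iduronidase, had 167 in nilotinibR cells and was not above the dim probes in parental cells, at 115, which gives at least 1.65-fold higher. SGSH, the sulfamidase of heparan sulfate breakdown, had 155 in nilotinibR cells and 255 in parental cells (1.92-fold lower).

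Of 20 other lysosomal membrane proteins measured, 2 were higher and 1 was lower, with a median of -0.04. SLC36A1, a proton-coupled amino acid transporter, had 282 in nilotinibR cells and 162 in parental cells (2.02-fold higher), and SIDT2, a membrane protein linked to uptake of nucleic acids, had 1063 in nilotinibR cells and 672 in parental cells (1.68-fold higher). LAPTM4B, a membrane protein of late endosomes and lysosomes, had the largest difference of all these genes, with a mean of 516 in nilotinibR cells against 2484 in parental cells. It was 4.94-fold lower, with log2 differences of -2.28 and -2.32 at its 2 probes, and 22 genes of the array were lower still. Its relative LAPTM4A had 227 in nilotinibR cells and 215 in parental cells. Probes of a gene disagreed for CD68, between -0.92 and -0.06, and for ABCB9, between -0.34 and 0.59, and neither mean reached 1.5-fold.

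The 11 genes for maturation and sorting of hydrolases, among them those of the mannose 6-phosphate tag and its receptors, had a median of 0.20, and none reached 1.5-fold. The mannose 6-phosphate receptor genes M6PR and IGF2R had log2 differences of -0.01 and 0.06. Values in this list ran between -0.51 for NAGPA, which uncovers the tag, and 0.52 for GGA2, a sorting adaptor. Of 16 genes that control TFEB and TFE3 or belong to their family, RRAGC, a GTPase that recruits the MTOR kinase complex and these factors to the lysosome, was higher, with 573 in nilotinibR cells and 368 in parental cells (1.69-fold). The other 15 lay under 1.5-fold as means of their probes, among them MTOR at -0.22, FLCN at 0.08 and MITF, another factor of the family, at 0.21. Single probes ran between -0.10 and 0.73 for FNIP1 and between 0.05 and 0.68 for RRAGB. The background shares of 7.51% and 8.22% hold for these lists too.

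**Figure D4:**
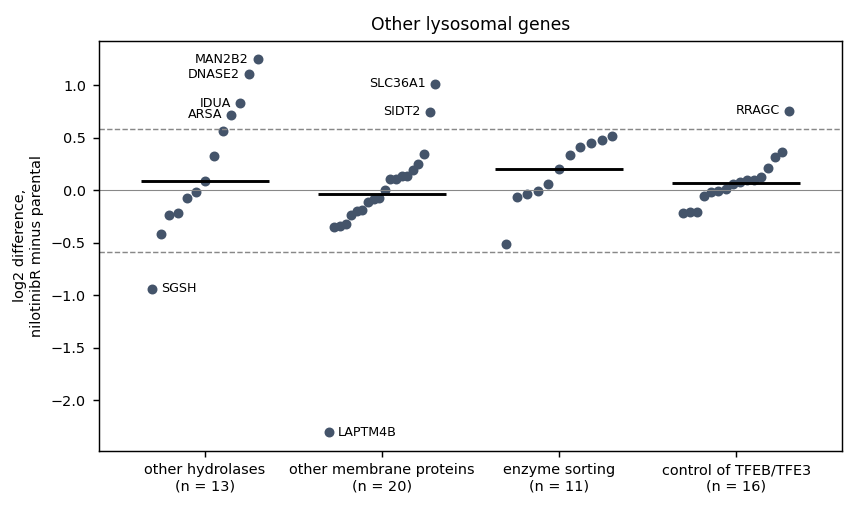
Log2 difference (nilotinibR minus parental) of lysosomal genes outside the set, in 4 lists, with the median of each list as a black bar; the dashed lines mark 1.5-fold and genes past them are named. MAN2B2, DNASE2, IDUA and ARSA lie above the upper line among the other hydrolases, and LAPTM4B lies far under the lower line at -2.30.

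Markers of the cell type were read beside these values. The fetal and embryonic globin genes HBG1, HBG2 and HBE1, known for their expression in K562, lay between 18259 and 19289 in nilotinibR cells and between 16611 and 18230 in parental cells. Of 7 erythroid markers measured, EPOR (3.89-fold), KLF1 (2.80-fold) and TFRC (1.75-fold) were higher in nilotinibR cells and none was lower. The other 4, HBG1, HBG2, HBE1 and GATA1, differed by less than 0.27. The globin genes lay near the highest intensity of each array (22044 in nilotinibR and 21126 in parental cells), where a difference may show less. The part of the 3 higher markers in the lysosomal differences was not tested. Macrophages are known to be rich in lysosomal enzymes. None of the 6 macrophage markers measured (CD14, CSF1R, MRC1, LYZ, C1QA and FCGR3A) reached 1.5-fold as a mean of its probes. The 2 LYZ probes disagreed, at -0.79 and 0.20. CSF1R and FCGR3A were above the dim probes only in nilotinibR cells, and MRC1 only in parental cells. CD163 and MARCO were not well above background on either array. The 8 named lay between 109.9 and 141.5 in nilotinibR cells and between 114.9 and 176.5 in parental cells. Of 6 granulocyte markers, 4 (MPO, ELANE, AZU1 and CSF3R) were not well above background on either array, and the other two did not reach 1.5-fold.

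The class medians were then compared across the ways of processing the arrays. The hydrolase median stayed above the pump median under each of the 9 alternatives of normalization, filter, probe choice and naming, with differences between the 2 medians of 0.23 to 0.59. The same 7 members were at least 1.5-fold higher under all 9, of which the naming alternative moved no value. Over these alternatives the fold of TPP1 ran between 2.51 and 2.89, that of GLB1 between 1.95 and 2.73, that of GUSB between 1.72 and 1.88, that of NPC2 between 1.81 and 2.02, that of FUCA1 between 1.61 and 1.86, that of MANBA between 1.78 and 2.37 and that of ATP6AP1L between 1.76 and 2.58. The filter and probe-choice alternatives could not move TPP1, GUSB, MANBA, FUCA1, NPC2 or ATP6AP1L. Each of these has 1 named probe, which was above the dim probes on both arrays. GLA lost its call when the background was not corrected, at a fold of 1.496, and PSAP gained one with an offset of 16 and in the deposited values.

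**Figure D5:**
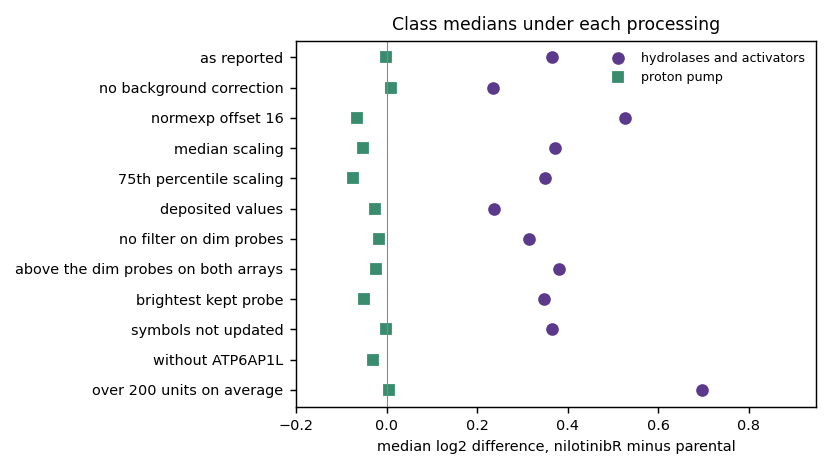
Median log2 difference (nilotinibR minus parental) of the hydrolases and activators (circles) and of the proton pump (squares) as reported and under each alternative; the last 2 rows, without ATP6AP1L and with genes over 200 units on average, were chosen after the data had been seen, and leaving out ATP6AP1L touches the pump alone. The circles lie between 0.24 and 0.70 and the squares between -0.07 and 0.01.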

How the data were processed

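Total RNA of nilotinibR and parental K562 cells was hybridized to 1 HumanHT-12v4 BeadChip array each. The authors named GenomeStudio and robust multichip average in RMA Express for processing, and deposited linear intensities of 47323 probes that still hold their background. The sources used here do not say which of those steps went into them. Scanner signals with detection p-values (4 columns) could not be tied to a sample by their names and were left aside, so dim probes were set apart by brightness and not, as planned, by detection p. Background was taken as normal around the commonest brightness of the dim probes (109.5 on the nilotinibR and 111.5 on the parental array), with the width seen below it, and the threshold (119 on the nilotinibR and 120 on the parental array) is passed by 5% of such background. Of the probes, 46.8% on the nilotinibR and 47.4% on the parental array lay above it, and 25540 did so on at least 1 array.

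With limma 3.58.1 in R 4.3.3, intensities went through normexp background correction (offset 50) and quantile normalization, and log2 values were taken. Python 3.11.15 with pandas 2.3.3 gave the counts and medians. By the platform annotation 30113 probes had 1 symbol, 8 had several and 17202 had none, and symbols were updated through RefSeq (GRCh38.p14), in which 30074 named probes were found. Of 66 member probes, 56 were kept and averaged by gene. A gene above the threshold on 1 array is given a bound (at least N-fold): its normalized level there is divided by whichever is higher on the other array, its own level or the lowest level above threshold. The threshold of 1.5-fold is that of the study's methods, whose test between 2 samples was not run for want of replicates. The precision is limited by the number of arrays. The steps were also run on simulated arrays with set changes of at least 2-fold in genes clear of the background. That run does not show how they treat smaller changes or changes of dim genes.

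The members, lists, tests and alternatives were chosen with earlier results of these data known. Values are given for every member at least 1.5-fold different, for the 3 largest other differences of each role, for members whose probes differed in sign or by over 1.5-fold and for TFEB and TFE3, and in the other lists for up to 4 genes past the threshold; some others are named to fill out a class. As alternatives, the values were taken without background correction, with an offset of 16, with median or 75th percentile scaling, and as deposited, and further ones were no filter or a stricter filter on dim probes, a gene's brightest probe alone, symbols not updated, and a 2-fold threshold.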

Additional observations from a re-analysis of the deposited data

How the results depend on the processing

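No paired analysis was possible because each condition has 1 array, which also leaves no replicate to omit. Without background correction no member was at least 1.5-fold lower (0, against 1 as reported), since GLA then lay just under the threshold. At 2-fold, 4 members were higher and 0 lower. With an offset of 16, 10 members were higher, GAA, PSAP and SMPD1 in addition, and with the brightest probe of each gene 8 were, ASAH1 in addition. Chosen after seeing the data, a restriction to genes averaging over 200 units left 10 hydrolases and activators and 16 pump genes, raised the hydrolase median to 0.70 and its excess over the pump median to 0.69. Of the 376 differences of single members under an alternative, 6 moved by more than the spread between probes. No member that was 1.5-fold different changed sign. Of the others, 7 members did so in 18 differences, all of them at most 0.11 in size as reported (PPT1, GALNS and the pump genes ATP6AP1, ATP6V0D1, ATP6V0E1, ATP6V1C1 and ATP6V1H). The 6 were ATP6AP1L (1.37) and GAA (0.74) with an offset of 16, GLB1 (0.97) without a filter, ATP6V1H (0.38) with the stricter filter and with its brightest probe, and ASAH1 (1.06) with its brightest probe. The cause was not tested, except that the values of GLB1, ASAH1 and ATP6V1H follow from which probes were averaged. Median and 75th percentile scaling differ from each other only by a constant shift, and updating symbols moved no value, so neither adds a separate check.

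Signal over background limits these values: 11 of the 42 measured members averaged at or under 200 units, and for 2 only 1 array was above the dim probes. Folds of dim genes are made smaller by the offset. Most members rest on 1 kept probe, and probes share the RNA and the array, so nothing here measures the spread between cultures.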
